A study of Mus musculus with 44 samples.

Results

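Crh encodes corticotropin-releasing hormone, the neuropeptide whose promoter marked the neurons that were profiled. It is 1 of the 8203 genes measured in ribosome-bound RNA of the amygdala of 44 mice, and it was taken by name as the target of the pulldown. The genes that followed it most closely between mice were ranked with it, and the 50 nearest and the 50 most opposed were kept as 2 groups. The question here is how much of the targeted peptide's own message each mouse gave, whether that differed between behavioural groups, and which other messages moved with it.

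Crh-TRAP mice carry 2 transgenes, a Cre recombinase driven by the Crh promoter (B6;FVB-Tg(Crh-cre)1Kres/J) and a Cre-dependent ribosomal protein L10a fused to eGFP, so that messages on ribosomes of Crh-expressing cells can be pulled down with an antibody against GFP. All groups were adult first-generation progeny of that cross and carried both transgenes. The 16 tone alone (TA) mice (10 males and 6 females) heard 5 tones of 6000 Hz with the shock generator off. The 12 fear conditioned (FC) mice (6 males and 6 females) had each of 5 tones end with a shock of 0.65 mA. The 16 extinction (EXT) mice (10 males and 6 females) were conditioned in the same way and on the next day heard 30 tones without shock in another context, so that day and context of the last session also set EXT apart from TA and FC. Each library came from bilateral punches of 1 mouse, and the punches were centred over the amygdala rather than cut to the central nucleus. RNA not bound to the tagged ribosomes was not analysed here, so the degree to which the pulldown raised Crh is unknown.

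CRH is cut from a precursor in dense-core vesicles and acts on the receptors CRHR1 and CRHR2, while the secreted CRH-binding protein takes it up and keeps it from them. In the lateral central amygdala, Crh is made by GABAergic neurons, many of which hold further neuropeptides, and these cells are known for their part in fear and stress responses. In cultured cells and in the hypothalamus, cAMP signalling through CREB raises Crh transcription and glucocorticoids lower it. These directions need not hold in the amygdala.

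The samples carried batch labels 1 to 5, with no word on what a batch was. Batches 1, 2 and 5 held all 3 groups (11, 10 and 17 mice). Batch 3 (5 mice) and batch 4 (1 mouse) held only EXT mice, so in these batches EXT and batch cannot be told apart. Effective library sizes ran from 12802113 to 20440351 reads, and every gene had at least 28 reads in every mouse. In the EXT mice of batches 3 and 4, Malat1 and the mitochondrially encoded transcripts, 9 transcripts in all, summed to between 6732 and 44061 cpm (counts scaled to a library of 1000000 reads). In EXT mice of the other batches they summed to between 325 and 5485, apart from mouse 21 of batch 2, where they reached 33373. The markers of GABAergic neurons Gad1 and Gad2 stood at medians of 78.2 and 84.2 cpm per kb of exon, above the glutamatergic marker Slc17a7 at 14.05. Slc32a1, another GABAergic marker, and Slc17a6, another glutamatergic one, were not among the measured genes. In TA mice the 9 measured glutamatergic genes summed to a median of 1577 cpm. The 24 measured genes of GABAergic and central amygdala identity summed to a median of 4803 cpm in the same mice. There the medians were 6543 cpm for 4 choroid plexus genes, 3850 for 15 oligodendrocyte genes and 2726 for 18 astrocyte genes. The lists differ in length, so these sums do not rank cell types.

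Crh (chr3:19693401-19695396, minus strand, GRCm38) was counted with between 125 and 2344 reads per mouse, or 8.88 to 144 cpm. Levels below are log2 cpm, and differences are on the same log2 scale, where 1 is a doubling. Scaled to its exonic length of 1320 bases, the median level of Crh was 33.5 cpm per kb, higher than in 75.7% of the 8005 genes with an assignable length. On this per-length scale other peptide messages stood above it, with Sst at 837, Tac2 at 150, Nts at 134 and Pdyn at 102. Pnoc stood lower, at 15.7, and Crhbp, the CRH-binding protein, at 11.6. The counting error of Crh was between 0.03 and 0.13 on the log2 scale.

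In batch 1, the 4 TA mice had Crh levels of 5.83, 6.58, 6.65 and 7.17 log2 cpm. The 5 FC mice of batch 1 had 6.34, 6.35, 6.49, 6.65 and 6.90, and the 2 EXT mice had 6.01 and 6.31. Every group of batch 1 thus lay high, with both EXT mice under the lowest FC mouse but inside the range of TA. In batch 2, the 5 TA mice had 4.80, 5.34, 5.56, 5.88 and 6.20, the 2 FC mice 4.98 and 5.21, and the 3 EXT mice 3.49, 5.47 and 5.87. The lowest of these, EXT mouse 21, stood alone, and the other values overlapped. Batch 5 held 7 TA mice with a lowest level of 4.81, a median of 5.68 and a highest of 6.29. The 5 FC mice of batch 5 had 4.08, 5.13, 5.32, 5.35 and 5.35, and the 5 EXT mice had 4.95, 5.11, 5.34, 5.56 and 6.17. In batch 5 only FC mouse 47 lay below all mice of the other groups. The 5 EXT mice of batch 3 had 3.15, 3.77, 3.97, 4.18 and 4.56, and the EXT mouse of batch 4 had 3.75, all below every mouse of the other batches but mice 21 and 47.

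**Figure D1:**
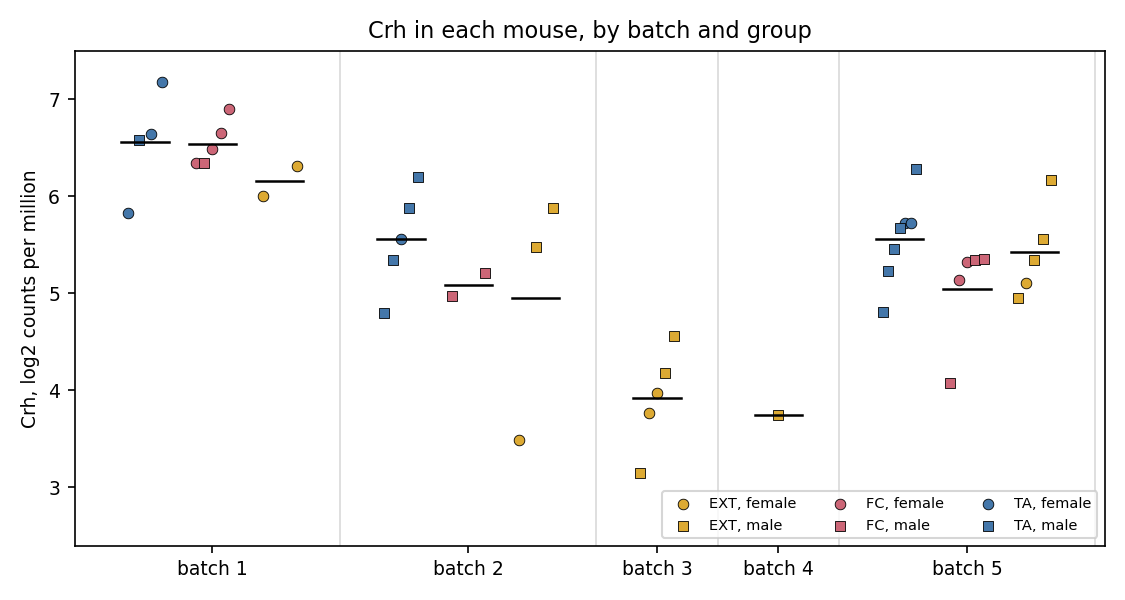
Level of Crh in each of 44 mice (log2 cpm, vertical axis) by batch, with TA in blue, FC in red and EXT in yellow, females as circles, males as squares, and a line at the mean of each group in each batch. Batch 1 lies highest, with 6.56 in TA, 6.54 in FC and 6.16 in EXT, and the EXT-only batches 3 and 4 lie lowest, at 3.93 and 3.75.

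Ordered by mean, the 11 combinations of batch and group began with the 3 of batch 1. They were followed by TA of batches 5 and 2 (5.56 each), EXT of batch 5 (5.43), FC of batch 2 (5.09), FC of batch 5 (5.05) and EXT of batch 2 (4.95), and ended with EXT of batches 3 and 4. From TA of batch 5 down to EXT of batch 2, neighbouring means differed by less than the SD of 0.57 between mice inside these combinations. Batches accounted for 69.0% of the variance of Crh over the 44 mice, groups for 21.7% and sexes for 4.93%, as shares that overlap because batch and group are not balanced.

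Crh differed between batches. Among the mice of batches 1, 2 and 5, with group and sex in the fit, the test of the batch term gave F = 16.8 (adjusted p = 3.68e-05, limma). Many genes did so, with 55.3% of those tested FDR-significant. Crh was lower in batch 2 than in batch 1 by -1.35 ± 0.26 (SE, adjusted p = 5.62e-05) and lower in batch 5 than in batch 1 by -1.22 ± 0.23 (SE, adjusted p = 2.67e-05). Batch 5 minus batch 2 gave 0.13 ± 0.21 (SE, 95% interval -0.29 to 0.56, adjusted p = 0.798). Among EXT mice, Crh was lower in batches 3 and 4 than in batches 1, 2 and 5 by -1.55 ± 0.33 (SE, 95% interval -2.24 to -0.86, adjusted p = 0.00274), in a comparison where 35.8% of genes were FDR-significant and 16.4% were lower. The difference of means in this last comparison was -1.53 with all mice and -1.75 without mouse 21.

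Between behavioural groups, inside batches, Crh did not pass the test in any pair. Over all mice the mean level was 5.81 ± 0.65 (SD, n = 16) in TA, 5.68 ± 0.85 (SD, n = 12) in FC and 4.85 ± 1.03 (SD, n = 16) in EXT, and the ranges of the groups overlapped. With batches as categories and sex in the fit, EXT minus TA was -0.32 ± 0.22 (SE, 95% interval -0.77 to 0.12, adjusted p = 0.399), in a comparison where 2 genes, 0.0244%, were FDR-significant. Differences of group means were -0.40 in batch 1, -0.61 in batch 2 and -0.13 in batch 5. Permuting groups inside batches gave a weighted difference of -0.34 (exact two-sided p = 0.178). The single EXT mouse 21 carried part of this, since without it the fitted difference was -0.13. With library size as a covariate the difference was -0.49 (adjusted p = 0.880, limma).

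The EXT result depended on how batch entered the fit. With batch as a number, EXT minus TA of Crh was -0.93 ± 0.29 (SE, adjusted p = 0.0234), and with no batch term it was -0.95 ± 0.29 (SE, adjusted p = 0.0223). In the fit with batch as a number 1755 genes, 21.4%, were FDR-significant. In both of these fits the 6 EXT mice of batches 3 and 4 count towards the group difference, and in the fit with batches as categories they enter only through the sex term and the spread. Leaving these batches out gave -0.32 ± 0.22 (SE, adjusted p = 0.383).

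FC minus TA of Crh was -0.34 ± 0.17 (SE, 95% interval -0.69 to 0.01, adjusted p = 0.309). In this comparison 0% of genes were FDR-significant (limma), and 1379 (16.8%) had an unadjusted p under 0.05, which Crh missed at 0.0564. Inside batches the difference was -0.01 in batch 1, -0.47 in batch 2 and -0.51 in batch 5, and the exact two-sided permutation test gave p = 0.0748. Without FC mouse 47 the fitted difference was -0.23, and without TA mouse 10 it was -0.44. The permutation p ranged from 0.0172 to 0.181 when 1 mouse was left out, and leaving out mouse 10, 18, 34 or 37 took it under 0.05. In the same comparison 4181 of the 8202 genes besides Crh had a negative difference. All 18 astrocyte genes had a positive one (median 0.45, 10 at an unadjusted p under 0.05), as did 14 of 15 oligodendrocyte genes (median 0.27). All 4 choroid plexus genes had a negative one (median -0.95, 2 at an unadjusted p under 0.05). None of these genes was FDR-significant, and their part in the difference of Crh was not tested. EXT minus FC was 0.06 ± 0.23 (SE, 95% interval -0.42 to 0.53, adjusted p = 0.994), with 0% of genes FDR-significant (limma) and 344 genes (4.19%) at an unadjusted p under 0.05. Its direction was not the same in all batches, with -0.39 in batch 1, -0.14 in batch 2 and 0.38 in batch 5, and the exact two-sided permutation p was 0.876. With batch as a number its sign turned to -0.73 (adjusted p = 0.235, limma).

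**Figure D2:**
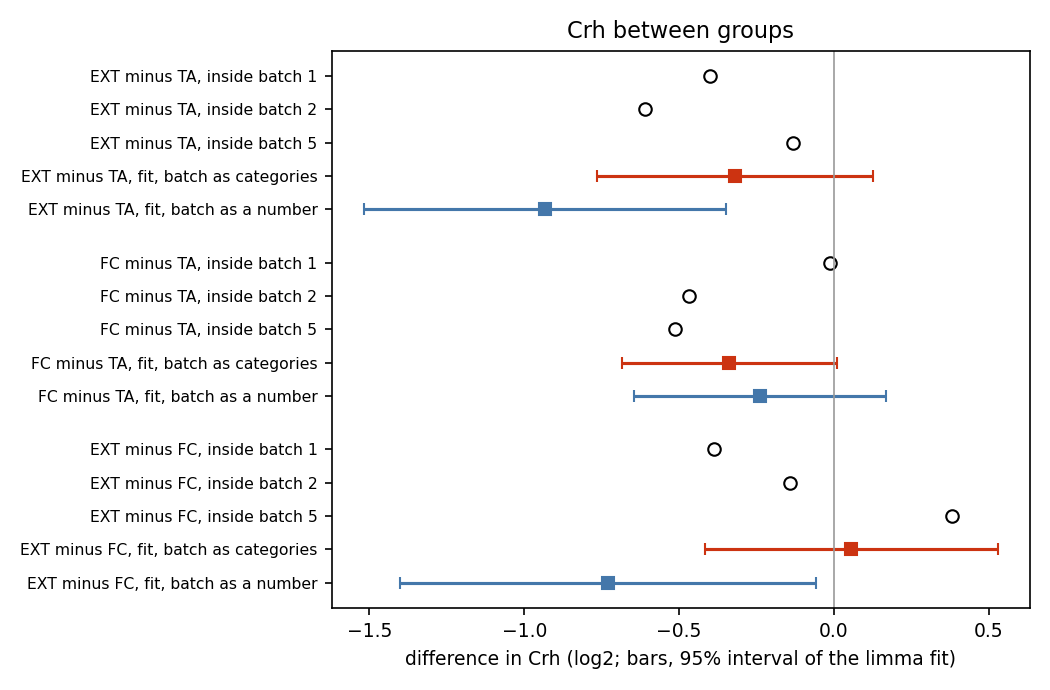
Difference in Crh between groups (log2, horizontal axis) inside batches 1, 2 and 5 (open circles, difference of means) and in the limma fits with batch as categories (red squares) or as a number (blue squares), with 95% intervals as bars. EXT minus TA reads -0.32 with batches as categories and -0.93 with batch as a number, the only interval of the first 2 comparisons that lies clear of 0.

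Between the sexes, no difference in Crh passed the test. Females had a mean of 5.68 ± 1.07 (SD, n = 18) and males 5.25 ± 0.83 (SD, n = 26), but females made up most of batch 1. With group and batch in the fit, males minus females was 0.16 ± 0.18 (SE, 95% interval -0.21 to 0.54, adjusted p = 1.00, limma), and 0% of genes were FDR-significant (339 genes, 4.13%, at an unadjusted p under 0.05). The EXT minus TA difference of males exceeded that of females by 0.64 ± 0.39 (SE, adjusted p = 0.898), and for FC minus TA the same contrast of sexes gave -0.33 ± 0.34 (SE, adjusted p = 0.812). Both intervals span 0, from -0.16 to 1.43 and from -1.02 to 0.36. In both of these limma tests 0% of genes were FDR-significant, and an unadjusted p under 0.05 was found for 494 (6.02%) and 789 (9.62%).

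To find the messages that moved with Crh from mouse to mouse, each gene was taken as a deviation from the mean of its batch and group, in the 8 combinations with at least 3 mice (39 mice). Inside these combinations Crh varied with an SD of 0.57, against 0.29 for the median gene, and 289 genes varied more. Of 2183 genes whose mean level lay within 0.5 of that of Crh, 76 varied more. Mouse 21 deviated most (-1.45), followed by mouse 47 (-0.97). Both entered the ranking, and values of r given without them are over 37 mice.

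The nearest genes were 3 further neuropeptides, Tac2, which encodes neurokinin B, Nts, which encodes neurotensin, and Sst, which encodes somatostatin. Pearson's r with Crh was 0.88 for Tac2 (Spearman's rho 0.87), 0.87 for Nts (rho 0.86) and 0.82 for Sst (rho 0.74). Without mice 21 and 47 these r values were 0.84, 0.84 and 0.77. They are the values by which the genes were ranked and serve as a description, and all genes of a mouse share its library. Per unit of log2 Crh, Tac2 rose by 1.08 ± 0.10 (SE), Nts by 0.87 ± 0.09 (SE) and Sst by 0.76 ± 0.10 (SE). A mouse with more Crh message than its batch and group thus had a near-proportional excess of Tac2 and Nts. In bulk pulldowns, fewer cells of a type and less RNA per cell cannot be told apart.

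**Figure D3:**
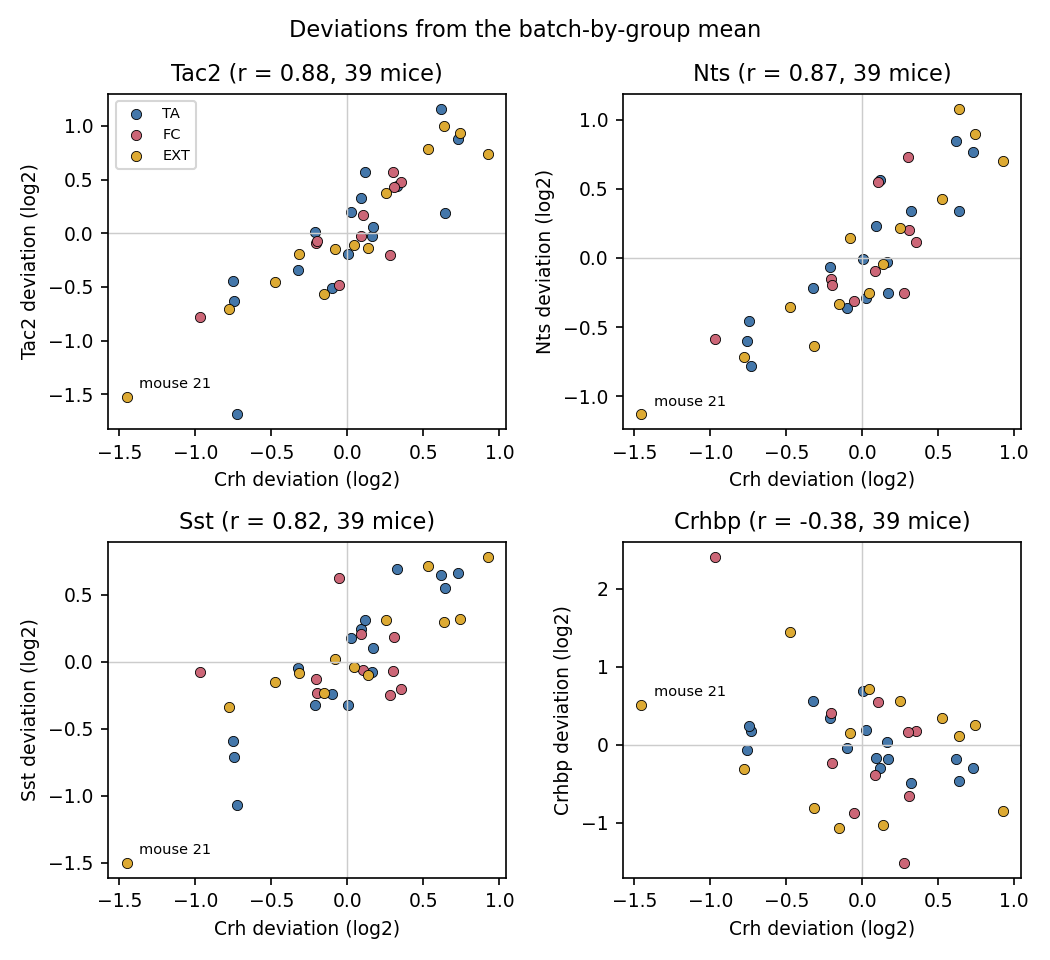
Deviation of Crh from the mean of its batch and group (log2, horizontal axis) against that of Tac2, Nts, Sst and Crhbp (log2, vertical axes) in 39 mice, with TA in blue, FC in red and EXT in yellow. Tac2 (r = 0.88), Nts (r = 0.87) and Sst (r = 0.82) rise with Crh, mouse 21 lies at the lower end of all 3, and Crhbp (r = -0.38) scatters.

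Promoters of the 3 nearest peptide genes are shown because the CREB-binding cAMP response element (TGACGTCA) is the element through which Crh is classically regulated. The RefSeq table (GRCm38.p6) holds no entry for Crh, Pnoc or Zdhhc14 among the genes named here. Each sequence is the 250 bases before the annotated start, 5′ to 3′ on the strand of the gene. Capitals mark TGACGTCA, its part TGACG or CGTCA, and TGANTCA, the AP-1 element.
Tac2 (chr10:127724228-127724477, plus strand): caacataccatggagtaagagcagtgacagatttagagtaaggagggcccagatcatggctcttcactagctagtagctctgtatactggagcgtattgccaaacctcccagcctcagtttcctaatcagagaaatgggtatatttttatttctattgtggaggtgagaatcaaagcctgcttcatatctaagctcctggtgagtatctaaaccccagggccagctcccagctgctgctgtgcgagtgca
Nts (chr10:102490419-102490668, minus strand): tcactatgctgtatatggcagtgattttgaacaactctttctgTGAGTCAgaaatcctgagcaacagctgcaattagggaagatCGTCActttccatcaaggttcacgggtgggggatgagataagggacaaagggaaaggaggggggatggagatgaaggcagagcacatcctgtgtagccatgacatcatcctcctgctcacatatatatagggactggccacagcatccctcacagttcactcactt
Sst (chr16:23890845-23891094, minus strand): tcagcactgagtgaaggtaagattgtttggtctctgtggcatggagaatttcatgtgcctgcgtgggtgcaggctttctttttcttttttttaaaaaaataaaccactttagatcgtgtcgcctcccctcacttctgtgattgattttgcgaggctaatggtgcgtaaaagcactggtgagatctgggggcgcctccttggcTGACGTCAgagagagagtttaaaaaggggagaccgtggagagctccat

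The promoter of Sst holds the full element, with its first base at -48 from the start. The window of Nts holds an AP-1 element at -207 and CGTCA at -166. The window of Tac2 holds none of these letters on either strand. TGACGTCA, read on both strands, stood in 1 of the 37 nearest followers with an entry (2.70%), in 3.74% of the 6393 measured genes with an entry and in 1.88% of all 27025 promoters. For TGACG or CGTCA, which the full element also contains, the shares were 29.7%, 35.2% and 21.0%, and for TGANTCA they were 8.11%, 4.10% and 7.93%. These windows, of 250 bases before and 50 after the start for the shares, describe letters and not binding.

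Levels of the 3 peptides overlapped between groups. Tac2 ran from 5.72 through a median of 7.78 to 8.64 log2 cpm in TA, from 6.72 through 7.97 to 8.59 in FC and from 5.33 through 7.12 to 8.47 in EXT. For Nts the lowest, median and highest levels were 6.39, 7.49 and 8.36 in TA, 6.73, 7.47 and 8.13 in FC, and 5.51, 6.92 and 8.41 in EXT. For Sst they were 8.30, 9.50 and 10.17 in TA, 8.78, 9.07 and 9.77 in FC, and 7.53, 8.80 and 9.94 in EXT. EXT had the lowest mouse for each of them, as for Crh. It was mouse 25 each time, from batch 3, which held only EXT mice. In the fit with batches as categories, EXT minus TA was -0.20 ± 0.27 (SE) for Tac2, -0.20 ± 0.21 for Nts and -0.13 ± 0.20 for Sst, and none passed the test (adjusted p from 0.602 to 0.742, limma). With batch as a number these differences were -0.76, -0.61 and -0.70, and that of Sst passed the test (adjusted p = 0.0443, limma).

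The likeness was not equal in all groups. In the 16 TA mice r was 0.83 for Tac2, 0.87 for Nts and 0.92 for Sst, and in 13 EXT mice 0.96, 0.93 and 0.92. In 10 FC mice r was 0.81 for Tac2 and 0.66 for Nts, but 0.02 for Sst. Among all genes, Tac2, Nts and Sst ranked 267th, 821st and 3872nd by r in FC. They ranked 3rd, 2nd and 1st in TA and 1st, 6th and 9th in EXT. The difference between groups was not tested. FC mouse 47, low in Crh, had an Sst of 9.23 log2 cpm, beside a mean of 9.31 in its batch and group. FC mouse 16 had the highest Sst of its batch and group, at 9.77, with a Crh of 6.49 near the mean of 6.54. The part of single mice in the FC value of Sst was not tested. In the 17 mice of batch 5, r was 0.88 for Tac2, 0.80 for Nts and 0.67 for Sst, and in the 22 mice of batches 1 to 3 it was 0.89, 0.91 and 0.88.

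After the 3 peptides came Wfs1, which encodes wolframin, a protein of the endoplasmic reticulum abundant in the central amygdala (r = 0.79), and Lamp5, which encodes a membrane protein of GABAergic neurons (r = 0.75). Both kept their r without mice 21 and 47, at 0.77 and 0.70. Itm2c, which encodes an integral membrane protein, followed with 0.73, or 0.62 without these mice. The opioid peptide precursors Pdyn (prodynorphin) and Pnoc (prepronociceptin) each had r = 0.72, and their r without mice 21 and 47 was 0.56 and 0.58. The next 7 were P4htm (0.70), Caly (0.69), Spns1 (0.68), Slc25a14 (0.68), Fkbp1a (0.68), Nrsn2 (0.67) and Zdhhc14 (0.66), and without the same mice their r ranged from 0.45 to 0.72. Caly encodes calcyon, a vesicle protein of neurons, and Zdhhc14 a palmitoyltransferase. The 50th nearest gene was Crabp1 (r = 0.585) and the first left out was Stard3 (r = 0.583). On the other side, Esco1 (-0.566) was the last gene kept and Dmd (-0.566) the first left out.

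The 10 genes at the other end held no neuropeptide. Tcp11l1 had the lowest r (-0.75), followed by Strbp (-0.75), which encodes an RNA-binding protein, Zfp148 (-0.74), a zinc finger transcription factor, and the Golgi genes Blzf1 (-0.73) and Golgb1 (-0.72). Baz2b (-0.70) and Jmjd1c (-0.66) encode chromatin proteins, Tpm4 (-0.67) a tropomyosin and Ccng1 (-0.66) cyclin G1, and Lrrc58 had -0.69. Without mice 21 and 47 these 10 lay between -0.57 and -0.41, and the median r of the 50 most opposed genes went from -0.60 to -0.41. For the 50 nearest it went from 0.63 to 0.52.

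Across all genes, 150 were FDR-significant for association with Crh inside batch and group (1.83%, limma), 76 of them positive (0.927%) and 74 negative (0.902%). This count rested on few mice. Without mouse 21 it was 16, and it was also 16 without mouse 51 or mouse 52, because the EXT mice of batch 2 are then only 2 and leave the ranking. Leaving out mouse 25 or mouse 37 gave 68 or 78, and leaving out mouse 47 or mouse 23 gave 227 or 297. The fit without mice 21 and 47 together likewise lost EXT mice 51 and 52 of batch 2, unlike the r values given without mice 21 and 47. In it 5 genes were FDR-significant, Tac2, Nts, Sst, Wfs1 and Lamp5. These 5 were also the nearest in the full ranking, which included all mice of this fit, so this is not a separate check. With ranks of the Crh deviations in place of their values there were 35 genes, all among the 150. With the mean of Malat1 and mitochondrial transcripts in the fit there were 14, of which 13 were among the 150. The library size of a mouse had r = -0.05 with Crh.

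The same measure was taken in mice that did not enter the choice. The 50 genes nearest to Crh in the 17 mice of batch 5 had a median r of 0.22 in the 22 mice of batches 1 to 3, with 36 of 50 above 0. The median of all genes was -0.01, and 48.8% were above 0. Chosen in batches 1 to 3 and taken in batch 5, the 50 nearest had a median r of 0.0015, with 25 above 0 and quartiles at -0.34 and 0.48. The list thus stood above all genes in one direction and close to them in the other, whereas Tac2 ranked 2nd in both sets of mice. Nts ranked 1st and Sst 3rd in batches 1 to 3, and they ranked 22nd and 168th in batch 5, where Wfs1 ranked 1st.

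Of the 19 other neuropeptides of the central amygdala that were listed, 10 were measured, and 5 of them (Tac2, Nts, Sst, Pdyn and Pnoc) were FDR-significant with a positive slope on Crh, as 0.927% of all genes were. These 5 also stand among the genes ranked highest by the same r. The median r of the 10 was 0.60, against 0.0017 for all genes. Penk, which encodes proenkephalin, had r = 0.49 (adjusted p = 0.0748, limma), Tac1 had 0.24, Cartpt 0.21 and Npy 0.16, and Cck, a peptide of many cortical neurons, had -0.22. Summed over the 10 genes, peptide message had r = 0.73 with Crh, and 0.67 without mice 21 and 47. In EXT mice these sums ran from 1079 to 7502 cpm, in FC mice from 2386 to 7398 and in TA mice from 2616 to 6165.

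**Figure D4:**
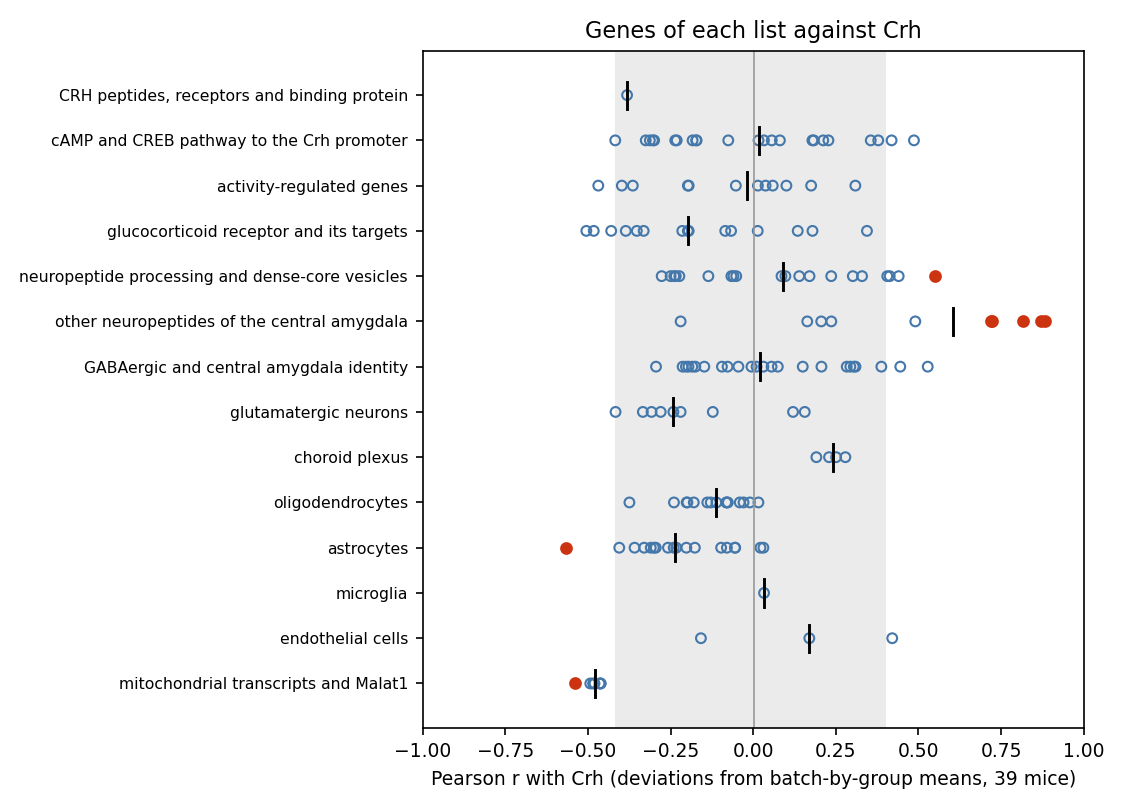
Pearson's r with Crh over 39 mice (horizontal axis, deviations from the mean of each batch and group) for the measured genes of 14 lists, with filled red points for FDR-significant genes, open points for others, black bars at list medians and a grey band from the 5th to the 95th percentile of all genes. The other neuropeptides stand apart with a median of 0.60. Filled points occur only in that list, neuropeptide processing, astrocytes, and mitochondrial transcripts and Malat1. Of all genes 1.83% were FDR-significant, so short lists can hold none.

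Crhbp (chr13:95431371-95444924, minus strand, GRCm38) was the only other measured gene of the 6 that code for CRH-family peptides, their receptors and the binding protein. Ucn, Ucn2, Ucn3, Crhr1 and Crhr2 are not among the 8203 genes. Its r with Crh was -0.38 (adjusted p = 0.202, limma), and -0.15 without mice 21 and 47. Mouse 47, the FC mouse with the lowest Crh, had the highest Crhbp of all mice at 6.95 log2 cpm. The lowest, median and highest levels of Crhbp were 3.36, 4.39 and 5.57 in TA, 3.03, 4.39 and 6.95 in FC, and 2.09, 4.33 and 6.30 in EXT. EXT minus TA of Crhbp was -0.01 ± 0.28 (SE, adjusted p = 0.982) and FC minus TA was 0.19 ± 0.27 (SE, adjusted p = 0.739).

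Of 20 measured genes of neuropeptide processing and dense-core vesicles, 1 was FDR-significant, Vgf, which encodes a granin-like secreted protein (r = 0.55, or 0.46 without mice 21 and 47). The median r of the 20 was 0.09, with 11 above 0, and without those mice it was 0.17, with 16 above 0. Rab3a, a vesicle GTPase, had r = 0.44 (adjusted p = 0.174), or 0.13 without them. Of the 23 measured genes of cAMP and CREB signalling, 0 were FDR-significant (limma), where 1.83% of all genes were, and their median r was 0.02. The kinase gene Sik3, which acts on CREB coactivators, had r = 0.49 (adjusted p = 0.105), and Prkacb, a catalytic subunit of protein kinase A, had 0.42. The coactivator gene Ep300 had -0.42. Creb1, named here outside the ranking because it encodes CREB, had r = -0.30 (adjusted p = 0.399).

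Association with Crh was FDR-significant for 1.83% of all genes (limma), so lists as short as these can hold none. Activity-regulated genes gave 0 FDR-significant of 12, with Junb at r = 0.31, Egr4 at 0.18, Jun at -0.40 and Btg2 at -0.47. Of 15 genes of the glucocorticoid receptor and its targets, 0 passed, with Fkbp4, a receptor co-chaperone, at 0.34 and the target Tsc22d3 at -0.48 (adjusted p = 0.107). Of 24 genes of GABAergic and central amygdala identity, 0 passed, and Dlx5, a transcription factor gene of GABAergic neurons, came closest with r = 0.53 (adjusted p = 0.0568), followed by the kinase gene Prkcd with 0.45. Without mice 21 and 47, r of Dlx5 was 0.35. The median of these 24 was 0.02, with 13 above 0, but 0.16 without mouse 21, and 0.13 with 19 above 0 without mice 21 and 47.

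Markers of other cell types were followed in the same mice. Of 18 astrocyte genes, 1 was FDR-significant, the bicarbonate transporter gene Slc4a4 (r = -0.57, or -0.37 without mouse 21), 2 had r above 0 and the median was -0.24, or -0.11 without mouse 21. Summed astrocyte message ran from 1262 to 4665 cpm in TA, 2218 to 4260 in FC and 1780 to 5766 in EXT, with r = -0.17 to Crh. The 9 glutamatergic genes had a median r of -0.24, or -0.12 without mouse 21 and -0.04 without mice 21 and 47. The 15 oligodendrocyte genes had a median of -0.11, or -0.17 without both mice, and 0 genes were FDR-significant in either list. The 4 choroid plexus genes, among them Ttr, which encodes transthyretin, had r between 0.19 and 0.28. Their sum ran from 187 to 27465 cpm in TA, 673 to 19373 in FC and 186 to 51048 in EXT, and it had r = 0.23 with Crh. Endothelial (3 measured) and microglial (1 measured) genes gave 0 FDR-significant, where 1.83% of all genes were. Malat1, a nuclear RNA, was FDR-significant with r = -0.54, or -0.28 without mouse 21, and the 7 measured transcripts of its list had a median r of -0.48, or -0.15 without mice 21 and 47. The authors had removed genes that fell too low in any mouse, so the markers left lie above 0 by selection. Their presence therefore cannot show whether a pulldown held a given cell type. The part of these markers in the spread of Crh was not tested beyond the fit with Malat1 and mitochondrial transcripts.

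The followers as groups were then read in differences between groups and batches. The ranking used deviations inside batch and group, but in the same mice, so these readings are not an independent check. It included the 5 EXT mice of batch 3 and mouse 21. The Malat1 and mitochondrial transcripts of mouse 21, at 33373 cpm, lay inside the range of batches 3 and 4, 6732 to 44061 cpm. In EXT minus TA, 31 of the 50 nearest genes had a negative difference, as did 3974 of the 8202 genes besides Crh. The median of the 50 was -0.06, against 0.01 for all genes. Of the 50, 0 were FDR-significant (limma), while 1 was lower at an unadjusted p under 0.05, as 11% of all genes were. With batch as a number, 10 of the 50 nearest were FDR-significant and lower in EXT, as 11% of all genes were, and 18 of the 50 most opposed were higher, as 10.4% of all genes were. In FC minus TA, 38 of the 50 nearest had a negative difference, as did 4181 of the 8202 genes besides Crh. Their median was -0.08, against -0.004 for all genes. Of the 50, 0 were FDR-significant (limma) and 5 were lower at an unadjusted p under 0.05, as 8.21% of all genes were. Both comparisons share the TA mice. Among EXT mice, 37 of the 50 nearest were FDR-significant and lower in batches 3 and 4 than in batches 1, 2 and 5, as 16.4% of all genes were. Of the 50 most opposed, 41 were FDR-significant and higher, as 19.3% of all genes were. The 7 transcripts of the Malat1 and mitochondrial list were all FDR-significant and higher there, by a median of 4.68. So were 12 of 18 astrocyte genes (median of the list 0.93) and 9 of 15 oligodendrocyte genes (median 0.83). In either list 0 genes were FDR-significant and lower. The part of these markers in these differences was not tested.

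Tac2, Nts and Sst were lower together with Crh in the EXT mice of batches 3 and 4, but did not pass the test between batches 1, 2 and 5. In EXT mice of batches 3 and 4, relative to the others, Tac2 was lower by -1.50 ± 0.29 (SE, adjusted p = 0.00169), Nts by -1.15 ± 0.24 (SE, adjusted p = 0.00229), Sst by -1.52 ± 0.23 (SE, adjusted p = 0.00056) and Pdyn by -1.81 ± 0.31 (SE, adjusted p = 0.00099), beside -1.55 for Crh. Sst ran from 7.53 to 8.19 log2 cpm in the 6 mice of batches 3 and 4, and from 8.66 to 9.94 in the 9 EXT mice of the other batches without mouse 21, which had 7.65. Crhbp gave -0.49 ± 0.44 (SE, adjusted p = 0.399) and Wfs1 -0.54 ± 0.25 (SE, adjusted p = 0.0983).

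Between batches 1, 2 and 5, by contrast, Tac2 changed by 0.01 (batch 2 minus 1) and -0.27 (batch 5 minus 1), Nts by 0.37 and 0.02, and Sst by -0.17 and 0.13. The batch term of none of these 3 was FDR-significant (adjusted p = 0.486, 0.254 and 0.368, limma), whereas Crh was lower by -1.35 and -1.22. Pdyn was lower by -0.96 and -0.69 (adjusted p = 0.0217) and Pnoc by -0.14 and -0.51 (adjusted p = 0.0297). Wfs1 was lower by -0.79 and -0.94 (adjusted p = 0.00060), P4htm by -0.91 and -0.71, and Spns1 by -1.04 and -1.04. Crh minus the mean of Tac2, Nts and Sst, a value formed after the data were seen, lay between -1.93 and -0.98 in the 11 mice of batch 1. It lay between -3.28 and -2.68 in the 10 mice of batch 2, between -2.98 and -2.56 in the 5 of batch 3, at -3.24 in the mouse of batch 4, and between -3.48 and -2.46 in the 17 of batch 5. Batch 1 did not overlap any other batch on this scale, while batch 3, low in Crh, lay inside the range of batch 5. The difference between the batch patterns of Crh and the peptides was not tested.

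**Figure D5:**
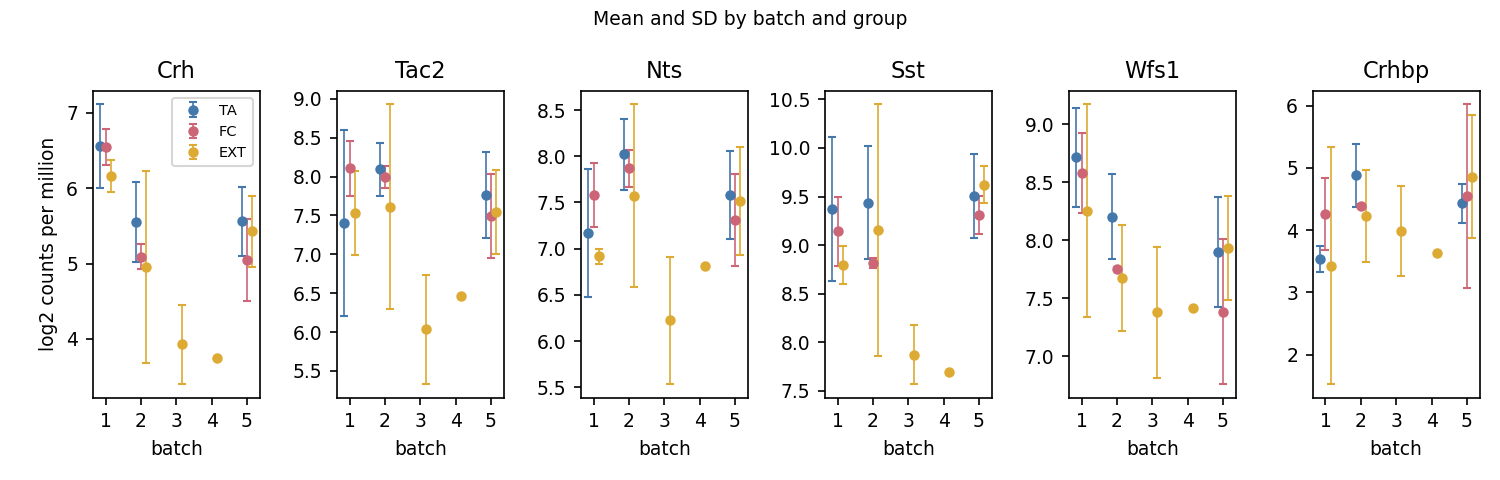
Mean level (log2 cpm, vertical axes) of Crh, Tac2, Nts, Sst, Wfs1 and Crhbp by batch (horizontal axes) in TA (blue), FC (red) and EXT (yellow), with the SD between mice as bars where there are at least 2 mice. Batches 3 and 4 are low for Crh and the 3 peptides, and batch 1 is high for Crh and Wfs1.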

How the data were processed

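Crh-TRAP-seq libraries of 44 mice were analysed. Per the labels and the study's methods, the authors trimmed reads with Trimmomatic 0.36, aligned them with STAR to GRCm38, counted genes, kept those above a minimum cpm, left out outlying samples and deposited voom log2 cpm values. All 44 columns hold deposited log2 values, although the record of units lists those headed by digits alone as other. Whole reads and library sizes were recovered from the 360932 log2 values (tolerance 0.01 reads, offset 0.5). Group, batch and sex came from the labels.

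Groups were compared in pairs with limma 3.58.1 (R 4.3.3), with batches as categories and sex as covariates and Benjamini-Hochberg adjustment over all genes at an FDR of 0.05. Single values were tested by two-sided exact permutation inside batches 1, 2 and 5. Likeness to Crh was Pearson's r of deviations from batch-by-group means (at least 3 mice), and association was tested with limma. Lengths and positions came from GENCODE M21, promoters from RefSeq. The scripts, in Python 3.11.15 (pandas 2.3.3, numpy 2.4.6) and R, were tested on simulated data.

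Named genes are Crh, measured genes of its family, the 15 highest and 10 lowest r, and the 2 highest and lowest of each list. The members and lists were chosen with earlier results of these data known. Alternatives were batch as a number, no batch term, batches 3 and 4 left out, all groups together, quantile normalization, median centring, a minimum mean log2 of 5, library size or sex as a covariate, voom weights, trended and robust eBayes, ranks, and each mouse left out. Covariates of 3 peptides and of Malat1 with mitochondrial transcripts, single groups and leaving out mice 21 and 47 were added after the data were seen. Depth was 12802113 to 20440351 reads.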

Additional observations from a re-analysis of the deposited data

Results flagged for a closer look

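Among 42 sets of 4 to 7 mice of 1 batch and group, examined for Crh, Tac2, Nts, Sst, Wfs1 and Crhbp, 3 held a mouse far from the rest of its set. Chance alone marks about 1 in 20 such sets. Crh in FC mouse 47 of batch 5 was 4.08 log2 cpm, where the nearest of the other 4 mice had 5.13. Tac2 in EXT mouse 59 of batch 5 was 8.47, where the nearest had 7.41. Sst in FC mouse 16 of batch 1 was 9.77, where the nearest had 9.08.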

How the results depend on the processing

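EXT minus TA of Crh became FDR-significant with batch as a number (-0.93) and with no batch term (-0.95). EXT minus FC turned negative with both (-0.73 and -0.78) and, by permutation inside batches, as a difference of -0.34 cpm. All other alternatives run with every mouse left the direction and the call of the Crh comparisons as they were. With library size as a covariate EXT minus TA moved to -0.49 and EXT minus FC from 0.06 to 0.24. Leaving out 1 mouse moved EXT minus TA between -0.41 and -0.13 (permutation -0.43 to -0.13), FC minus TA between -0.44 and -0.23 (permutation -0.43 to -0.22) and EXT minus FC between -0.0848 and 0.20 (permutation -0.0865 to 0.20). The 150 genes associated with Crh (76 positive, 74 negative) became 16 to 297 (14 to 140 positive, 2 to 157 negative) when 1 mouse was left out. They became 95 with sex as a covariate (44 negative), 35 with ranks (24 and 11) and 14 with Malat1 and mitochondrial transcripts (11 and 3). Without mice 21 and 47 they became 5 (5 and 0), in a fit that also lost the other EXT mice of batch 2. Within TA alone there were 3 (2 and 1), within FC 1 (0 and 1) and within EXT 17 (9 and 8). Library size as a covariate gave 116 negative genes, and a minimum mean log2 of 5 gave 34. Of the 28 named genes that were FDR-significant, all kept their sign in each of these fits that included them, except that 27 did within FC. These genes were picked by r in the same mice. FDR significance was kept by 28 with library size, 26 with sex, 20 with ranks and 9 with Malat1 and mitochondrial transcripts. It was kept by 5 without mice 21 and 47, 2 within TA, 0 within FC and 4 within EXT. Followers chosen in batches 1 to 3 had a median r of 0.0015 in batch 5. No paired analysis was possible because the labels number mice individually and give groups no shared replicate numbers. The counting error of Crh was between 0.03 and 0.13 on the log2 scale, and the variation added by pulldown and library preparation was not measured.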
